A study of Mus musculus with 12 samples.

Results

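The genes described here are 9 interferon-stimulated genes of the mouse, *Isg15*, *Ifit1*, *Ifit3*, *Irf1*, *Irf7*, *Irf9*, *Stat2*, *Oasl2* and *Rsad2*, chosen by symbol from the 24091 genes of the expression table. All 9 were found, and all 9 passed the filter on low values in every comparison. Their messenger RNA was measured by RNA sequencing in 12 samples of mouse cerebellum and medulloblastoma, a tumor of the cerebellum, with 3 samples in each of 4 groups. The tumors (Tumor) and the cerebellum next to them (Adjacent) came from the same 3 mice, GB344, GB359 and GB370, of the genotype *Brca2-mut;Trp53-mut*. The controls were cerebella without a tumor, from 3 *Brca2-mut;Trp53-WT* mice (GB361, GB508 and GB512) and 3 *Brca2-WT;Trp53-mut* mice (GB517, GB519 and GB520). Brca2-mut stands for *Brca2* Δex3-4, the loss of exons 3 to 4 in the central nervous system through an hGFAP-Cre transgene, and Trp53-mut for *Trp53* -/- in the whole animal. Cells that come from outside the Cre-expressing lineages, such as microglia, were therefore not targeted at *Brca2* in this model. The control cerebella were taken at postnatal day 90 and are described by the study as age-matched, while the tumors were taken when the mice reached a humane endpoint. Each group carried at least 1 of the 2 mutations, so no sample was wild type at both genes.

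Interferons are secreted proteins that cells make when they sense foreign or misplaced nucleic acid. A type I interferon binds its receptor, the receptor-bound kinases JAK1 and TYK2 phosphorylate STAT proteins, and STAT2 joins IRF9 in ISGF3, a complex that binds the interferon-stimulated response element (ISRE) in the promoters of its targets. Type II interferon acts on its targets through the gamma-activated site (GAS). In the brain, microglia, astrocytes and neurons can all respond, and interferon-stimulated genes are known to be active at a low level even without infection.

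The promoters of the members carry the letters of these elements unevenly. Windows of 300 bases, from 250 before to 50 after an annotated start, were read from RefSeq (GRCm38.p6) for all 9 members, 11 windows in all, since *Irf1* and *Irf9* have more than 1 listed start. The ISRE core, searched as GAAANNGAAA on both strands, was found in the windows of 5 members, *Isg15*, *Ifit1*, *Ifit3*, *Stat2* and *Rsad2*, against 3.44% of all 32851 windows. The GAS core, searched as TTCNNNGAA on both strands, was found in 1 member, *Irf1*, against 8.3% of all windows. Among the other interferon-stimulated effectors, a list of 62 genes described further on, 25 of the 44 genes with a window held the ISRE core and 13 held the GAS core. The stretches around the matches are printed because the members differ there in the number and position of the copies. They run 5′ to 3′ along the gene's strand, with the matched letters in capitals. On the minus strand, *Isg15* lies at chr4:156200850-156200921 and *Rsad2* at chr12:26456538-26456597. On the plus strand, *Ifit1* lies at chr19:34640760-34640838, *Ifit3* at chr19:34583348-34583441, *Irf1* at chr11:53769899-53769957 and *Stat2* at chr10:128270251-128270310.
Isg15: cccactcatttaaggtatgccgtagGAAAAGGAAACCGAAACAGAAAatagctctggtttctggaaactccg
Ifit1: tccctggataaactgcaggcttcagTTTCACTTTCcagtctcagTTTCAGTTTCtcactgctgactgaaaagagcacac
Ifit3: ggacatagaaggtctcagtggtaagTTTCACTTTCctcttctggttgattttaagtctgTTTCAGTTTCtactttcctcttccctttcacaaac
Stat2: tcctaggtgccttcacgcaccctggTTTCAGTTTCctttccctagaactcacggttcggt
Rsad2: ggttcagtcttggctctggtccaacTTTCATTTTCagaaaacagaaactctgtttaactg
Irf1: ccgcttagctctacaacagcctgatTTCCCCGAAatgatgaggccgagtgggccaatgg
*Isg15* held 3 overlapping ISRE matches, beginning 78, 72 and 66 bases before the start. *Ifit1* and *Ifit3* held 2 matches each, and *Stat2* and *Rsad2* held 1. The windows of *Irf7*, *Irf9* and *Oasl2* held neither core, which says only that these letters are not in these windows.

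Each sample summed to between 999793 and 999876 TPM (a share of all transcripts, scaled to the same total in every sample), a unit that corrects for transcript length and keeps no read depth, so depth is unknown and precision rests on the spread between mice. Whole-gene TPM does not check the genotypes, because both alleles delete only some exons: *Trp53* averaged 127 ± 3.19 TPM (SD, n = 3) in the tumors and 48.6 ± 1.30 TPM in *Brca2-WT;Trp53-mut* cerebellum, against 34.8 ± 2.10 TPM in *Brca2-mut;Trp53-WT* cerebellum. The cerebellar labels were borne out by Purkinje cell markers, which summed to at least 3679 TPM in every sample of cerebellum and at most 305 TPM in the tumors. A pair of libraries stood apart for the interferon-stimulated genes. Control GB512 was the highest of the 6 controls for 8 of the 9 members, against 13.3% of all genes, and tumor GB344 was the highest of the 3 tumors for 9 of 9, against 27.5% of all genes. Tumor GB370 was the lowest tumor for 9 of 9 members, against 29.6% of all genes, and adjacent GB344 was the highest of the 3 adjacent samples for 6 of 9, against 39.8%. Results that rest on GB512 or GB344 are given below with and without them.

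The transcription factors of the pathway took different courses. *Stat2*, the partner of IRF9 in ISGF3, stood at 27.2, 25.2 and 18.8 TPM in the tumors of GB344, GB359 and GB370. In their adjacent cerebellum it stood at 63.9, 75.1 and 69.8 TPM, in *Brca2-mut;Trp53-WT* cerebellum (GB361, GB508, GB512) at 49.0, 39.2 and 55.7 TPM, and in *Brca2-WT;Trp53-mut* cerebellum (GB517, GB519, GB520) at 70.3, 60.2 and 58.6 TPM. Every tumor lay below every other sample, and GB512 did not stand out. *Irf9*, the DNA-binding subunit of ISGF3, went the other way, at 62.5, 35.9 and 27.1 TPM in the tumors and 39.7, 25.4 and 20.9 TPM in the adjacent tissue. It stood at 18.7, 10.7 and 28.2 TPM in *Brca2-mut;Trp53-WT* and at 18.3, 17.7 and 16.1 TPM in *Brca2-WT;Trp53-mut* cerebellum. Only control GB512 reached above the lowest tumor. *Irf7*, the factor that amplifies the production of type I interferon and is itself induced by it, stood at 69.7, 20.2 and 13.2 TPM in the tumors and at 16.8, 14.4 and 10.5 TPM in the adjacent tissue. Among the controls it stood at 5.81, 2.79 and 19.9 TPM in *Brca2-mut;Trp53-WT* and at 2.47, 2.98 and 3.18 TPM in *Brca2-WT;Trp53-mut* cerebellum. Here GB512 lay above all 3 adjacent samples and above the tumor of GB370. *Irf1*, a factor best known as a target of interferon gamma through the GAS element, stood at 26.3, 21.8 and 11 TPM in the tumors and 12.4, 8.10 and 5.27 TPM in the adjacent tissue. Its 6 control values were 5.06, 4.54 and 7.12 TPM in *Brca2-mut;Trp53-WT* and 5.14, 6.29 and 5.35 TPM in *Brca2-WT;Trp53-mut* cerebellum. *Irf1* was the 1 member whose 3 tumors all lay above all 6 controls.

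The effectors were led by tumor GB344. *Isg15*, a ubiquitin-like protein that is attached to other proteins, stood at 236, 28.5 and 16.9 TPM in the tumors and at 27.6, 13.6 and 14.6 TPM in the adjacent tissue. It stood at 10.3, 7.61 and 25.8 TPM in *Brca2-mut;Trp53-WT* and at 6.48, 7.89 and 7.43 TPM in *Brca2-WT;Trp53-mut* cerebellum. The tumor of GB344 held 10.4 times the mean of the other 2 tumors, the widest such ratio among the members. *Oasl2*, of the oligoadenylate synthetase family that senses double-stranded RNA, stood at 63.1, 24.9 and 10.8 TPM in the tumors and 19.1, 16.0 and 9.75 TPM in the adjacent tissue. Its controls were at 3.55, 2.66 and 18.5 TPM in *Brca2-mut;Trp53-WT* and at 2.5, 2.69 and 2.32 TPM in *Brca2-WT;Trp53-mut* cerebellum. Without GB512, every tumor and every adjacent sample exceeded every control. *Rsad2*, which encodes the antiviral enzyme viperin, stood at 26.1, 7.83 and 4.43 TPM in the tumors and at 5.5, 4.67 and 3.25 TPM in the adjacent tissue. It stood at 1.92, 0.80 and 4.57 TPM in *Brca2-mut;Trp53-WT* and at 1.66, 1.66 and 1.32 TPM in *Brca2-WT;Trp53-mut* cerebellum. The lowest tumor was 0.969 times the value of GB512.

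The 2 members of the IFIT family, which bind viral RNA, differed from each other. *Ifit1* stood at 24.2, 12.9 and 6.12 TPM in the tumors and at 9.87, 9.22 and 9.99 TPM in the adjacent tissue. It stood at 5.80, 3.80 and 18.6 TPM in *Brca2-mut;Trp53-WT* and at 4.23, 3.22 and 2.76 TPM in *Brca2-WT;Trp53-mut* cerebellum. Its adjacent samples were the closest set, with a mean of 9.69 ± 0.417 TPM (SD, n = 3). *Ifit3* stood at 29.2, 23.1 and 15.5 TPM in the tumors and at 29.9, 23.8 and 39.5 TPM in the adjacent tissue, and was thus not higher in any tumor than in its own adjacent cerebellum. It stood at 21.8, 24.0 and 74.9 TPM in *Brca2-mut;Trp53-WT* and at 17.6, 17.2 and 17.4 TPM in *Brca2-WT;Trp53-mut* cerebellum, so that the highest value of the 12 samples was a control, GB512. *Ifit3* has a near-identical copy, *Ifit3b*, with which it can share reads, and its values are uncertain to that extent.

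**Figure D1:**
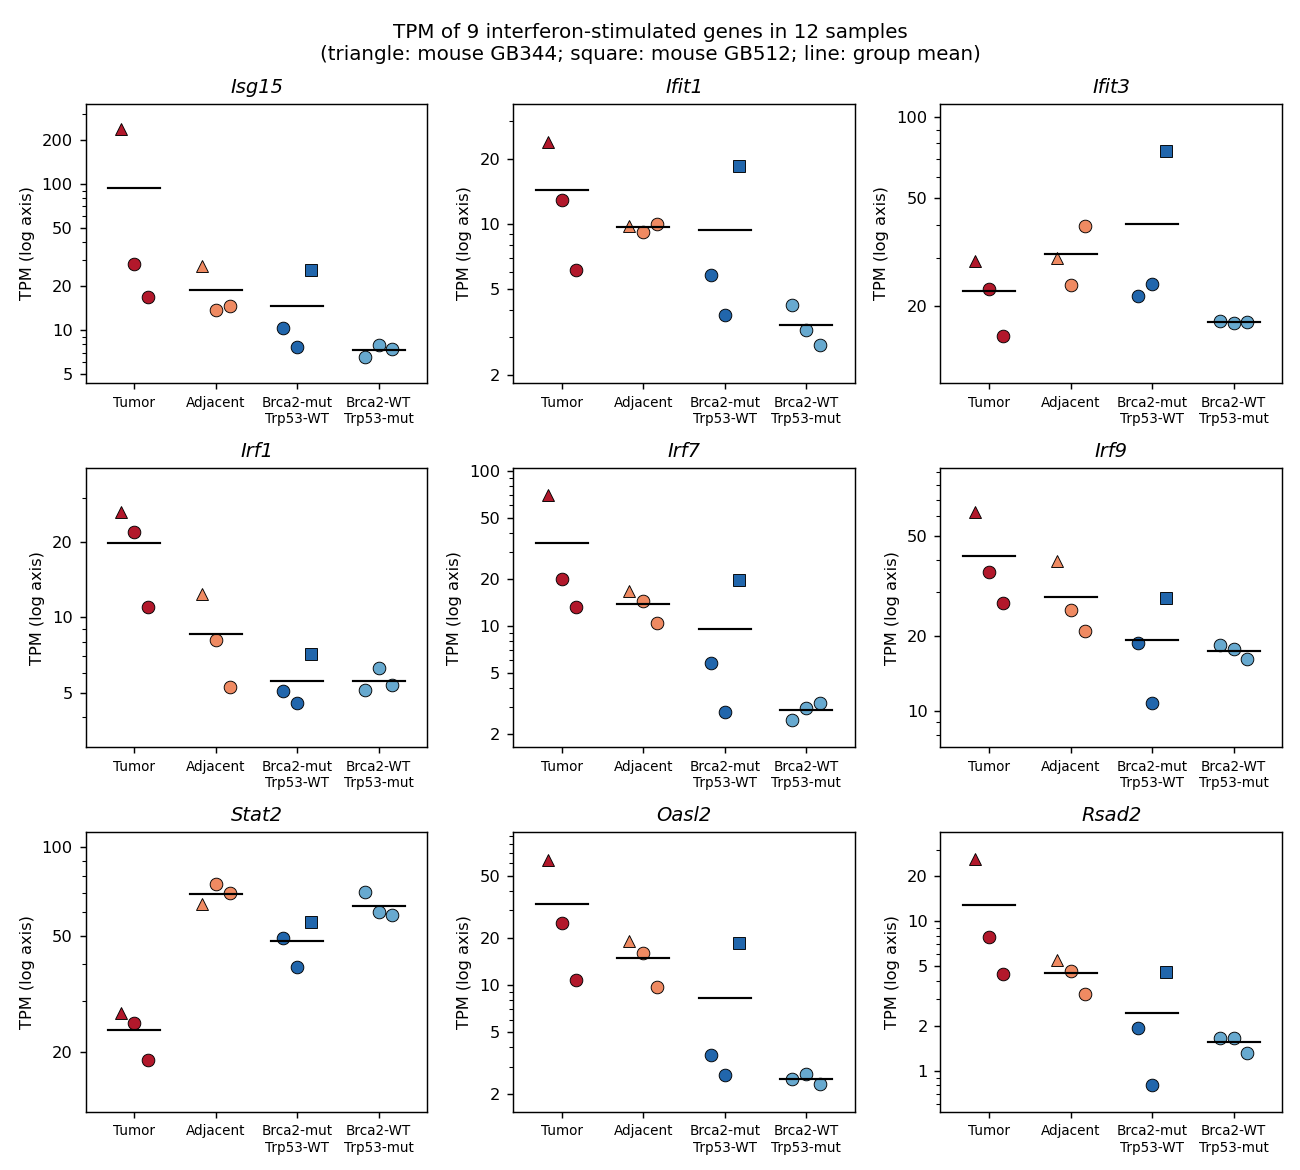
TPM of each member (log axis) in the 12 samples, by group, with the group mean of 3 samples as a line, mouse GB344 as triangles and mouse GB512 as squares. Tumor GB344 is the highest tumor in all 9 panels, GB512 is the highest control in 8, and the 3 tumors lie below all other samples for Stat2.

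By level, TPM allow the members to be ordered within a group, since TPM is a value per length. In the 6 controls *Stat2* was the highest member at 55.5 ± 10.6 TPM (SD, n = 6), followed by *Ifit3* at 28.8 ± 22.7 TPM and *Irf9* at 18.3 ± 5.69 TPM. *Isg15* at 10.9 ± 7.42 TPM, *Ifit1* at 6.39 ± 6.05 TPM, *Irf7* at 6.19 ± 6.83 TPM, *Irf1* at 5.58 ± 0.946 TPM, *Oasl2* at 5.37 ± 6.44 TPM and *Rsad2* at 1.99 ± 1.32 TPM came after. Below *Stat2*, each neighbour in that order differed from the next by less than the larger of their SDs. In the tumors the order was led by *Isg15* at 93.8 ± 123 TPM (n = 3), with an SD above its mean, and *Irf9* at 41.8 ± 18.4 TPM, and *Stat2* at 23.8 ± 4.39 TPM came after *Irf7* at 34.4 ± 30.8 TPM and *Oasl2* at 32.9 ± 27.0 TPM.

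The first comparison asked which members differed between the tumors and tumor-free cerebellum of both control genotypes. *Irf1*, *Irf7*, *Irf9*, *Oasl2* and *Rsad2* were higher in the tumors and *Stat2* was lower, and *Isg15*, *Ifit1* and *Ifit3* did not pass the test. A gene was called when limma gave an adjusted p (Benjamini-Hochberg over all genes tested) under 0.01 with at least 1 log2 unit of change, on the scale log2(TPM + 1), which understates the change of low genes. The 5 members called higher compare with 14.4% of the 16241 genes tested, and the 1 called lower with 21.5%. Since whole tissue was measured, more or fewer cells of a type and more or less RNA per cell cannot be told apart.

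*Oasl2* differed most, with a log2 fold change of 2.46 (SE 0.63, limma adjusted p = 0.00530), followed by *Irf7* at 2.30 (SE 0.63, limma adjusted p = 0.00746). *Rsad2* rose by 1.96 (SE 0.47, limma adjusted p = 0.00365), *Irf1* by 1.58 (SE 0.24, limma adjusted p = 0.000151) and *Irf9* by 1.12 (SE 0.29, limma adjusted p = 0.00582). *Irf1* had the smallest adjusted p of the members that rose, although 3 of them had larger fold changes. *Stat2* fell by 1.18 on the log2 scale (SE 0.18, limma adjusted p = 0.000140). *Isg15*, with its wide spread, had a log2 fold change of 2.23 and a limma adjusted p of 0.0170, *Ifit1* one of 1.15 with 0.0749, and *Ifit3* one of -0.15 with 0.766. The 95% interval of *Ifit3*, from -1.10 to 0.80, leaves room for a change in either direction. All 3 tumors lay above all 6 controls for *Irf1* alone, 1 of 9 members against 28.3% of genes, and below all of them for *Stat2*, 1 of 9 against 35.7% of genes.

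**Figure D2:**
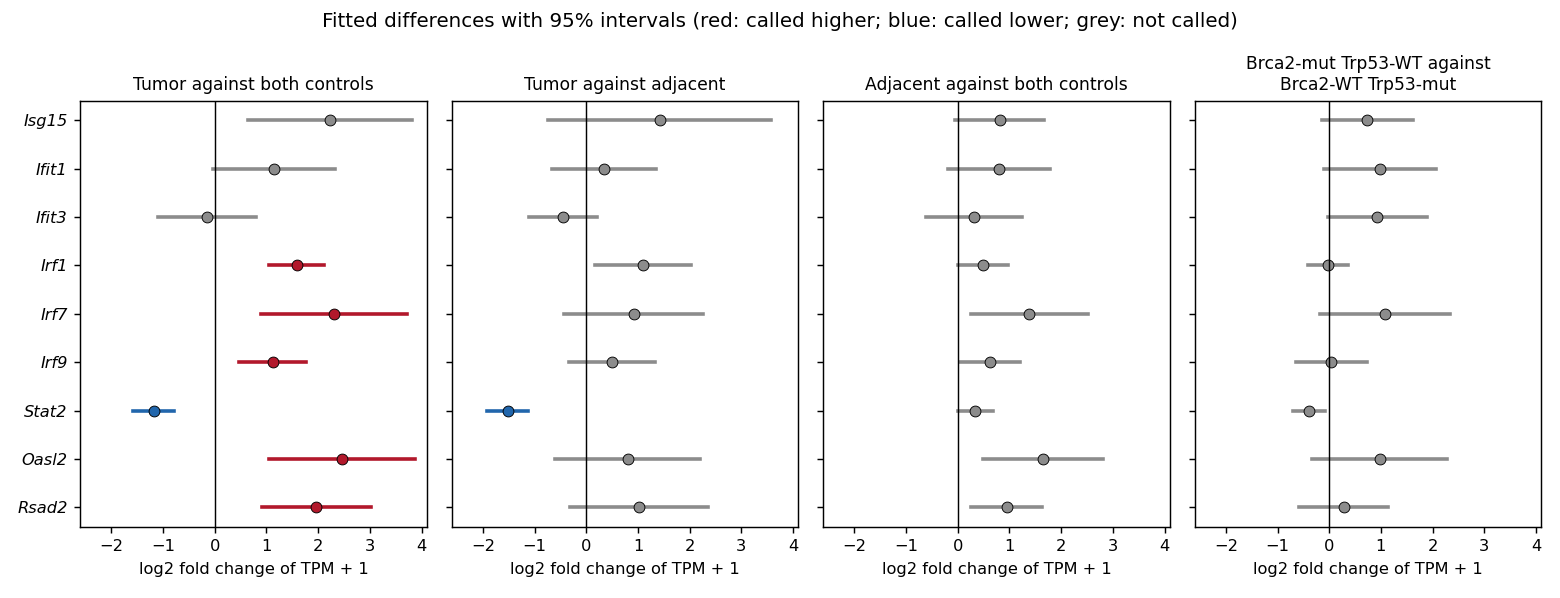
Fitted log2 fold change of TPM + 1 (point) with its 95% interval (line) for each member in the 4 comparisons, in red where called higher, blue where called lower and grey where not called. Calls are found in the first 2 panels only, where Stat2 is lower in both and 5 members are higher in the tumors than in the controls.

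How many members passed moved with single libraries. Without control GB512, 7 members were called higher, *Isg15* and *Ifit1* among them, against 14.5% of all genes, and the tumors lay above the remaining 5 controls for 7 of 9 members, against 29.1% of genes, and below them for *Stat2*, 1 of 9 against 36.2%. *Oasl2* then had a log2 fold change of 2.86 and *Irf7* one of 2.68. GB512 was singled out as the highest control for 8 of 9 members, against 13.3% of all genes. The counts without it follow in part from that choice. Without tumor GB344, *Irf1* alone was called higher (log2 fold change 1.34), 1 of 9 against 14.2% of genes. Without both libraries, *Isg15*, *Irf1*, *Irf7*, *Oasl2* and *Rsad2* were called higher, with log2 fold changes of 1.37, 1.40, 2.01, 2.23 and 1.51. That was 5 of 9 members, where 2365 of the 16241 genes were called higher. This pair of libraries was chosen after seeing the data, so that count too follows in part from the choice.

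Of the 9 ways to leave out 1 sample, *Irf1* and *Stat2* were called in all 9, *Rsad2* in 8, and *Irf7*, *Irf9*, *Oasl2* and *Isg15* in 2 each, without tumor GB370 and without control GB512. Leaving out tumor GB359 or any of the 5 other controls left 2 members called higher, *Irf1* and *Rsad2*. In these fits 2243 to 2343 of the 16241 genes were called higher. The calls of *Irf7*, *Irf9* and *Oasl2* thus lay close to the threshold. The fold changes of the 7 members other than *Ifit3* and *Stat2* stayed positive throughout, and that of *Ifit3* ran from -0.35 to 0.17. Against the *Brca2-WT;Trp53-mut* controls alone, *Irf1*, *Irf7* and *Oasl2* were called higher and *Stat2* lower, where 2163 of 15970 genes were called higher and 3562 lower. Against the *Brca2-mut;Trp53-WT* controls alone, which include GB512, *Irf1* was called higher and *Stat2*, at -0.98, fell just short of 1 log2 unit. There 2255 of 15767 genes were called higher and 3237 lower.

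**Figure D3:**
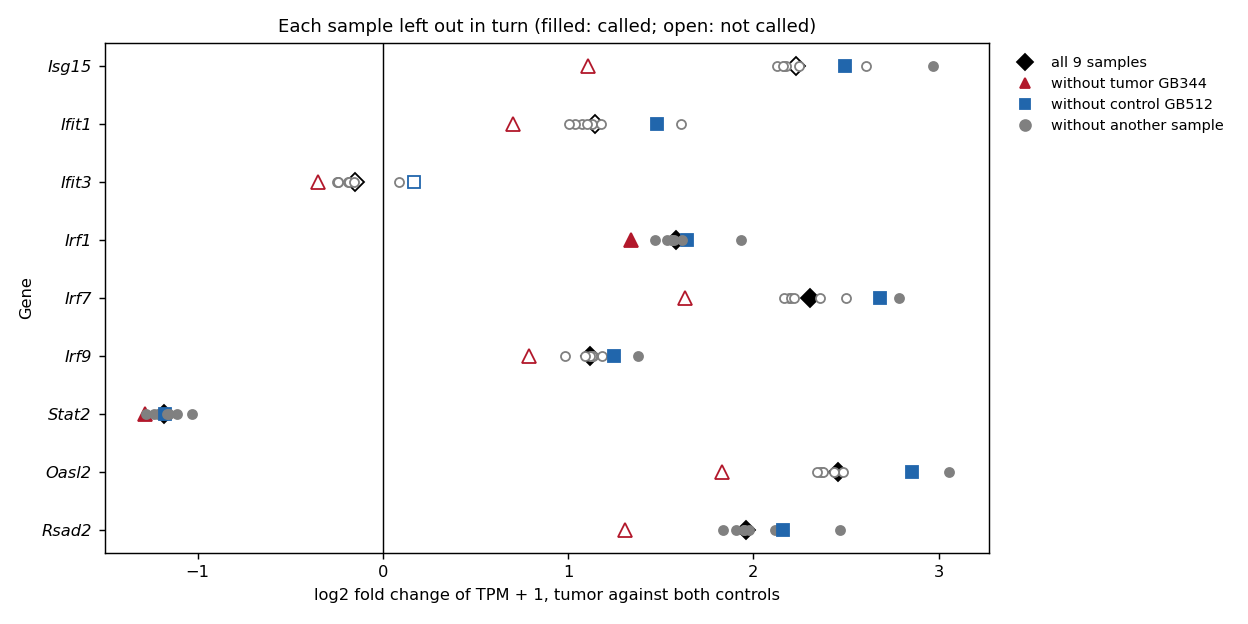
Log2 fold change of TPM + 1 of each member, tumor against both controls, with all 9 samples (diamond) and with each sample left out in turn (triangle, without tumor GB344; square, without control GB512; circle, without another sample), filled where called. Irf1 and Stat2 are filled throughout, while Isg15, Irf7, Irf9 and Oasl2 are filled in 2 of the 9 leave-outs each.

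The second comparison set the 3 tumors against the adjacent cerebellum of the same 3 mice, first in a fit that left out the pairing by mouse. *Stat2* was lower in the tumor in all 3 mice, and most other members were higher, but no member was called higher, against 4.76% of the 15845 genes tested. *Irf1* was the 1 member higher in the tumors with an unadjusted limma p under 0.05, which 9045 of the 15845 genes had in either direction. *Stat2* fell by 1.52 on the log2 scale (SE 0.17, limma adjusted p = 0.000596), 1 of 9 members against 18.0% of genes called lower. The 3 tumors lay below the 3 adjacent samples for *Stat2*, 1 of 9 against 38.9% of genes, and above them for 0 of 9, against 23.7%. Within mice, its adjacent value was 2.35 times the tumor value in GB344, 2.97 times in GB359 and 3.70 times in GB370.

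*Irf1* was 2.12 times as high in the tumor as in the adjacent tissue in GB344, 2.69 times in GB359 and 2.09 times in GB370. All 3 mice thus showed a like rise. *Isg15* by contrast was 8.55 times as high in GB344, 2.09 times in GB359 and 1.15 times in GB370, and *Rsad2* was 4.75, 1.68 and 1.36 times as high. In all, 7 of 9 members were higher in the tumor in GB344, 7 in GB359 and 6 in GB370, where *Ifit1* was at 0.613 times its adjacent value. The share of all genes higher in the tumor was not taken for single mice. The median log2 difference over the members was 1.21 in GB344, 0.48 in GB359 and 0.19 in GB370. When the mouse entered the fit as a block, *Irf1* passed (log2 fold change 1.10, SE 0.17, limma adjusted p = 0.00619), 1 of 9 members against 4.42% of genes, and *Stat2* remained called, with 701 genes called higher and 2841 lower in all. Without both samples of GB344, the blocked fit gave *Irf1* a limma adjusted p of 0.0189, and *Stat2* was still called. The split of calls over all genes moved with the scaling, from 755 higher and 2852 lower to 1648 and 2136 under quantile normalization, but the member counts did not change.

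The adjacent cerebellum was then set against the tumor-free controls. All 9 members had positive log2 fold changes, with a median of 0.80 against 0.07 over all genes. That median was 0.51 without adjacent GB344, 1.08 without control GB512 and 0.54 against the *Brca2-mut;Trp53-WT* controls alone. Of the 9, none passed the test in limma, where 0.224% of the 16091 genes tested were called higher and 0.0124% lower. An unadjusted limma p under 0.05 was found for 5 members, *Irf1*, *Irf7*, *Irf9*, *Oasl2* and *Rsad2*, against 5551 of the 16091 genes in either direction. The fold changes were led by *Oasl2* at 1.65 (SE 0.52, limma adjusted p = 0.0566) and *Irf7* at 1.39 (SE 0.51, limma adjusted p = 0.0872), and the least were those of *Stat2* at 0.34 and *Ifit3* at 0.31. Without control GB512, *Oasl2* was called higher with a log2 fold change of 2.05 and a limma adjusted p of 0.00784, where 0.0373% of all genes were. Without adjacent GB344 as well, *Oasl2* stood at 1.86 and was not called (limma adjusted p = 0.0260). With only GB512 left out, the 3 adjacent samples lay above the other 5 controls for 6 of 9 members, against 14.1% of genes. They lay below them for 0 of 9, against 8.53%. GB512 was the highest control for 8 of 9 members, so these counts follow in part from leaving it out. With GB512 the adjacent samples lay above all 6 controls for 0 of 9, against 11.7%, and below for 0 of 9, against 7.64%.

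The adjacent samples also held genes of the granule cell lineage that gives rise to this tumor, and their part in these differences was not tested. The 6 progenitor and proliferation markers summed to 609.9, 443 and 79.7 TPM in the adjacent tissue of GB344, GB359 and GB370, against 40.7 to 58.7 TPM in the controls other than GB512, 78.0 TPM in GB512 and 1043 to 1875 TPM in the tumors. The sum over the members ran in the same order in the adjacent tissue, at 225, 190.2 and 184 TPM. It was 96.1 to 129 TPM in the controls other than GB512 and 253 TPM in GB512. In the tumors of GB344, GB359 and GB370 the order was not the same. There the markers summed to 1043, 1875 and 1764 TPM and the members to 564, 200 and 124 TPM.

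The 2 control genotypes were then compared with each other. No member was called in limma, where 0.0128% of the 15575 genes tested were called higher in *Brca2-mut;Trp53-WT* cerebellum and 0.0449% lower. *Stat2*, with a log2 difference of -0.40, was the 1 member with an unadjusted limma p under 0.05 (limma adjusted p = 0.171), against 3123 of the 15575 genes. The *Brca2-mut;Trp53-WT* samples lay above the other 3 controls for *Ifit3*, 1 of 9 against 6.70% of genes, and below them for *Stat2*, 1 of 9 against 20.3%. The median over the members was 0.74 with GB512 and 0.22 without it, and *Irf9* and *Rsad2* turned from 0.04 and 0.28 to -0.27 and -0.15. The 6 choroid plexus markers, genes of the epithelium that makes cerebrospinal fluid, also separated these groups, with sums of 3971 to 5195 TPM in *Brca2-WT;Trp53-mut* and 18.0 to 879 TPM in *Brca2-mut;Trp53-WT* cerebellum. The part of that difference in dissected tissue in the member values was not tested.

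GB512 held 6.94 times the median of the other 5 controls for *Oasl2*, 6.69 times for *Irf7*, 4.88 times for *Ifit1*, 4.26 times for *Ifit3* and 3.4 times for *Isg15*. The ratio was 2.75 for *Rsad2*, 1.60 for *Irf9*, 1.39 for *Irf1* and 0.950 for *Stat2*. *Irf1* and *Stat2* were the members least raised in that library. In GB512 the 15 microglia and macrophage markers summed to 380.1 TPM, against 215 to 265 TPM in the other controls, and the progenitor and proliferation markers were at their highest among the controls in the same library. The part of either in its member values was not tested.

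The wider interferon pathway was followed through lists of genes for each step. Some genes, among them *Ifih1*, *Usp18* and *Herc6*, are counted in several of these lists, so the counts are not independent. The interferons themselves were barely measured: of 11 interferon genes, 7 were listed at 0 TPM in all 12 samples, and the highest single value was 0.527 TPM, of *Ifnk* in tumor GB344. *Ifnb1* was listed above 0 in 2 samples, tumor GB344 and control GB512, at 0.12 and 0.24 TPM. Both genes were named after their values were seen. The 11 genes summed to 0.974, 0.437 and 0.0771 TPM in the tumors of GB344, GB359 and GB370. In the controls they summed to at most 0.487 TPM, in GB512, with 0.471 TPM in GB508. None of the 11 passed the filter on low values. None of the 5 receptor genes that passed was called between tumors and controls. *Ifngr2*, a chain of the interferon gamma receptor, was lower by 0.87 on the log2 scale at a limma adjusted p of 3.33e-05 and so fell short of the fold minimum, and *Ifngr1*, its other chain, was higher by 0.37.

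Among 9 kinases, STATs and IRFs outside the members, 2 rose in the tumors against the controls, *Irf8* by 2.09 and *Irf5* by 1.03 on the log2 scale, and 0 fell, against 14.4% of all genes called higher. The count was 1 without tumor GB344 and 1 against the *Brca2-mut;Trp53-WT* controls alone.

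The nucleic acid sensors, with their adaptors and the nucleases that remove their ligands, included differences with little spread among the tumors. Of 17 such genes tested, 7 rose in the tumors against the controls, where 14.4% of all genes did, and 0 fell. Of the 7, 3 encode the subunits of the enzyme RNase H2. *Tmem173*, which encodes the adaptor STING, stood at 12.8, 15.5 and 12.9 TPM in the tumors, 4.93, 4.18 and 2.35 TPM in the adjacent tissue and 1.24 to 2.60 TPM in the controls, and rose by 2.27 (SE 0.16, limma adjusted p = 5.41e-07). *Mb21d1*, which encodes the DNA sensor cGAS, stood at 9.92, 8.61 and 4.19 TPM in the tumors and 0.46 to 1.05 TPM in the controls, and rose by 2.32 (SE 0.23, limma adjusted p = 5.70e-06). Tumor GB344 did not stand apart in either gene as it did in *Isg15*. *Rnaseh2b*, a subunit of the enzyme that removes ribonucleotides from DNA and RNA-DNA hybrids, rose by 2.12 and *Ifih1*, the RNA sensor MDA5, by 1.46. Against the adjacent tissue 3 of the 17 genes were called higher, the adaptor gene *Tmem173* by 1.65 and the RNase H2 subunit genes *Rnaseh2b* by 1.29 and *Rnaseh2a* by 1.03, and 0 lower.

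The other interferon-stimulated effectors numbered 62 in the table. Of the 58 tested, 34 rose in the tumors against the controls and 0 fell, with a median log2 fold change of 1.5 against -0.11 over all genes. Of all genes 14.4% rose and 21.5% fell. *Cxcl10*, a chemokine that attracts T cells, rose by 3.44 (SE 0.78, limma adjusted p = 0.00253), *Ccl5*, another chemokine, by 2.83 (SE 0.51, limma adjusted p = 0.000575), *Usp18*, the protease that removes ISG15 from its targets, by 2.74 and *Oas1b* by 2.40. *Cxcl10* stood at 71.1, 36.0 and 14.2 TPM in the tumors, 19.1, 9.90 and 8.71 TPM in the adjacent tissue, 18.7 TPM in GB512 and 0.50 to 3.11 TPM in the other controls. As with the members, the tumor of GB344 was the highest of the 3 for 55 of the 58, and GB512 the highest control for 50. The count was 17 without tumor GB344, 38 without GB512, 33 without both and 8 against the *Brca2-mut;Trp53-WT* controls alone. Of all genes, 14.2% were called higher without GB344 and 14.5% without GB512. Without both, 2365 of 16241 were, and against the *Brca2-mut;Trp53-WT* controls alone 2255 of 15767. Both libraries were chosen after their values were seen, so the counts without them follow in part from that choice. Against the adjacent tissue 0 of 58 were called in limma. At an unadjusted p under 0.05, 16 were higher and 1 was lower, against 9045 of all 15845 genes in either direction. With the mouse as a block 4 were called higher, where 4.42% of all genes were. Without mouse GB344 the blocked fit called 0. Median-of-ratios scaling gave 2 of 58 against 8.09% of all genes, and quantile normalization 3 of 58 against 10.4%, both shares below those of all genes. In adjacent tissue against controls 0 of 57 were called in limma, and 1 was called without GB512, where 0.0373% of all genes were called higher. An unadjusted p under 0.05 was found for 31, all higher, against 5551 of all 16091 genes in either direction.

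**Figure D4:**
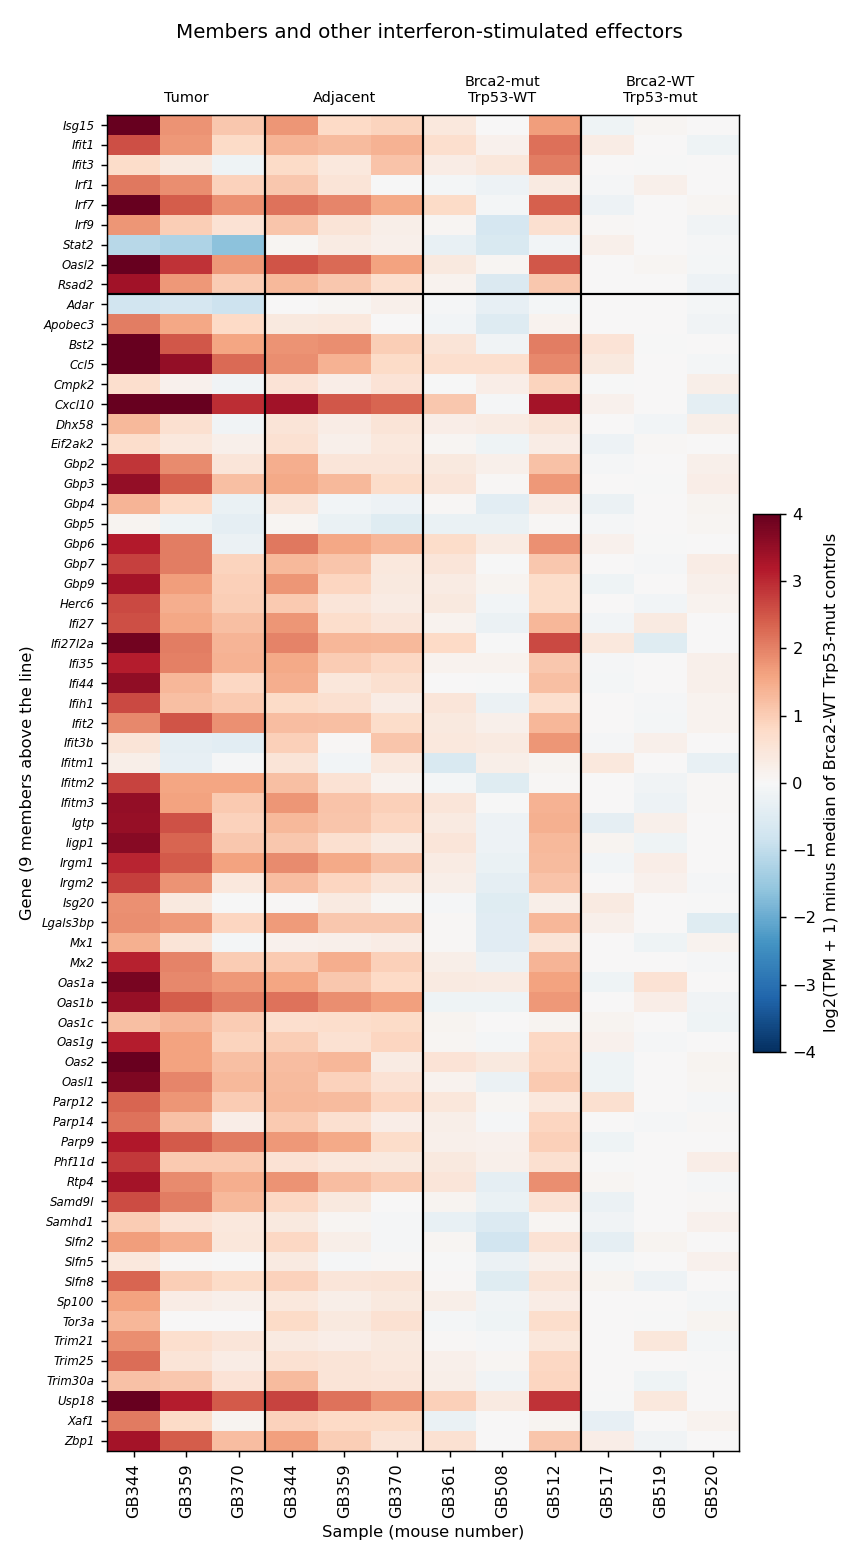
Log2(TPM + 1) of the 9 members (above the line) and the other interferon-stimulated effectors that passed the filter (below), minus the median of the Brca2-WT;Trp53-mut controls, in the 12 samples (colors are capped at 4 in either direction). Tumor GB344 is the strongest column, control GB512 differs from the other 5 controls across most rows, and Stat2 and Adar are lower in the tumors.

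Between tumor and adjacent tissue, the effector with the smallest p was *Adar*, an editor of double-stranded RNA, at 46.4, 49.97 and 44.3 TPM in the tumors and 80.1, 83.8 and 91.9 TPM next to them. Its log2 difference of -0.85 (limma adjusted p = 0.00145) missed the fold minimum, and its tumors lay below all adjacent samples, as for 38.9% of all genes. Next came *Samd9l*, an antiviral effector, which was higher by 1.58 (limma adjusted p = 0.0120) and did not pass. Between adjacent tissue and controls the smallest p was that of *Xaf1*, which was higher by 0.87 (limma adjusted p = 0.00883) and missed the fold minimum too, followed by *Oas1c*, of the oligoadenylate synthetase family, at 0.70 (limma adjusted p = 0.0143).

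Of 10 genes of class I antigen presentation, 6 were called higher in tumors against controls and 0 lower. Over all genes these shares were 14.4% and 21.5%. The count called higher was 2 without tumor GB344, 6 without GB512, 6 without both and 0 against the *Brca2-mut;Trp53-WT* controls alone. Of all genes, 14.2% were called higher without GB344 and 14.5% without GB512, and both libraries were chosen after seeing the data. *Psmb8*, a subunit of the immunoproteasome, rose by 2.38 and *H2-K1*, a class I heavy chain, by 2.0. The 4 not called were *H2-D1*, another such chain, at 0.06, *Tapbp* at 0.18, *Psmb10* at 0.47 and *Tap2* at 0.56. Against the adjacent tissue 0 of the 10 were called. Of 10 negative regulators of interferon signaling, a list that also holds *Isg15* and *Usp18*, 3 were called higher and 0 lower. This compares with 14.4% of all genes called higher and 21.5% lower. *Socs3*, an inhibitor of cytokine receptors, stood at 28.5, 27.7 and 27.8 TPM in the tumors and 0.83 to 2.54 TPM in the controls, the largest rise of that list at 3.64 (SE 0.19, limma adjusted p = 7.40e-08). Of 5 genes for attaching and removing ISG15, 2 rose, *Usp18* and *Herc6*, the latter by 1.52, where 14.4% of all genes did. Both were already counted among the effectors. Against the *Brca2-mut;Trp53-WT* controls alone 0 of the 5 rose. Without tumor GB344, 2 of the negative regulators and 1 of these 5 genes were called, where 14.2% of all genes were called higher.

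Markers of myeloid cells moved with the tumor comparison, and their part in the member values was not tested. Of 15 microglia and macrophage markers 9 were called higher in tumors against controls and 0 lower, and none was at 0 in any sample. Their sum was 474, 851 and 609.6 TPM in the tumors of GB344, GB359 and GB370, 527, 492 and 254 TPM in the adjacent tissue and 215 to 380.1 TPM in the controls. Tumor GB344, the highest for every member, was thus the lowest of the 3 tumors for that sum, while in the controls GB512 was the highest for both. Of 10 T cell and NK cell markers 2 passed the filter, and of these *Cd3d*, a chain of the T cell receptor complex, rose by 1.99, whereas *Cd3e* stood at most at 0.66 TPM. Markers of mature cerebellar neurons and glia were lower over the same contrast, where 21.5% of all genes were called lower. Called lower were 5 of 5 Purkinje cell, 5 of 6 granule neuron, 6 of 7 astrocyte and Bergmann glia and 6 of 6 oligodendrocyte markers.

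**Figure D5:**
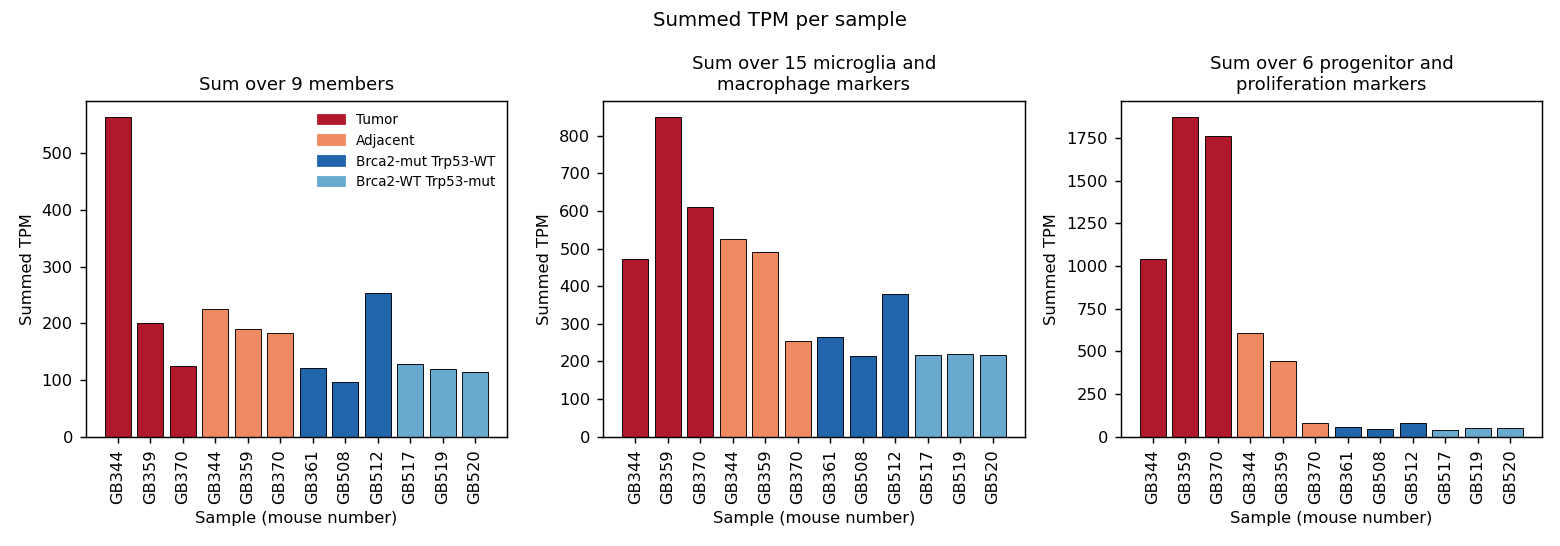
Summed TPM per sample over the 9 members (left), 15 microglia and macrophage markers (middle) and 6 granule cell progenitor and proliferation markers (right), 1 bar a sample, colored by group. The member sum is highest in tumor GB344, followed by control GB512, where Ifit3 at 74.9 TPM and Stat2 at 55.7 TPM contribute most. Both marker sums are highest in tumor GB359.

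The members did not all vary together. Over the 12 samples, Pearson's r on log2(TPM + 1) had a median of 0.91 over the 21 pairs without *Stat2* and *Ifit3*, of 0.38 over the 7 pairs of *Ifit3* with members other than *Stat2*, and of -0.41 over the 8 pairs with *Stat2*. This grouping of the pairs was chosen from the values, and *Ifit1* with *Ifit3* had the same r as *Ifit1* with *Irf1*, 0.70. These values describe samples that share tumor and control tissue and include GB344 and GB512. Outside the members, genes among the 5 nearest to the members' mean profile were *Ddx58* (r = 0.98), *Rtp4* (0.97), *C4b* (0.97) and *Ifi27l2a* (0.97), over the same 12 samples. The nearest gene of *Isg15* was *Ifi44*, of *Irf7* *Usp18*, of *Rsad2* *Bst2*, of *Irf9* *Ifi27*, of *Ifit1* *Ifi27l2a* and of *Oasl2* another member, *Irf7*, with r between 0.96 and 0.99. *Irf1*, *Stat2* and *Ifit3* had other neighbours, *Ccdc61* (0.99), *Galnt15* (0.99) and *Ifit3b* (0.91).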

How the data were processed

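Poly(A) RNA of flash-frozen tissue was sequenced. The labels name Genewiz for library preparation and sequencing and the methods also a university core, for which they give 75 bp reads. Which samples went where is not given in the sources used here. The read length of each library is therefore not known, and a batch was not tested. Per the submitters' processing notes and the methods, the authors ran Salmon 0.8.1 on mm10 transcripts (the TxDb.Mmusculus.UCSC.mm10.knownGene package, 3.4.0) and imported its output with tximport 1.20, and the deposited values are TPM per gene for 24091 genes. The authors tested counts with DESeq2. Counts were not analysed here, so depth is unknown and no counting error is given.

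Here the values were put on the scale log2(TPM + 1), and a gene entered a comparison if 3 or more of its samples reached 1 TPM. The test was that of limma 3.58.1 (lmFit, then eBayes with trend) in R 4.3.3, fitted only to the groups compared and adjusted by Benjamini-Hochberg across every gene that entered. Calls used the cutoffs given in the study's methods, adjusted p under 0.01 with 1 log2 unit or more. The 4 comparisons were tumor against both controls, tumor against adjacent, adjacent against both controls, and the 2 control genotypes against each other. They share samples and are not independent of each other. On data simulated from these samples, the fit of tumor against both controls recovered 91.0% of genes changed by 2 log2 units, and that of tumor against adjacent 67.0%. The changed genes were drawn from those with a mean log2(TPM + 1) above that of 5 TPM, with noise drawn separately for each gene. These shares therefore do not cover low genes or spread that the members have in common.

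The members and gene lists were chosen with earlier results of these data known. All 9 members are named. From each other list the text gives counts and names up to 4 called genes per comparison with the largest change, or the 2 with the smallest p where none was called. The nearest genes are the 5 with the highest correlation with the members' mean z score and 1 for each member. Not all of these are reported here. Genes named outside this rule (the levels of Ifnb1, Ifnk and Cd3e) were chosen after their values were seen. Tumor and adjacent samples were paired by the mouse number in their titles. The deviations of same-numbered samples from their group means correlated over 15845 genes at 0.249, 0.176 and 0.152. Alternatives were other pseudocounts (0.1, 0.01), filters (none, 5 TPM), scalings (median of ratios, quantile), eBayes without trend, all groups in a fit, an adjusted p of 0.05 with no fold minimum, either control genotype alone, the mouse as a block, and each sample left out. Entrez identifiers matched RefSeq (GRCm38.p6) for 24045 of 24091 genes, and promoter windows came from RefSeq of the same build. Python 3.11.15 and matplotlib 3.10.9 were used for tables and figures.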

Additional observations from a re-analysis of the deposited data

Results flagged for a closer look

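Within the 6 control cerebella, control GB512 (Brca2-mut;Trp53-WT) lay far from the other 5 for 6 of the 9 members, by the gap to its nearest neighbour relative to the range of the group (limit 0.625 for 6 samples). The values were 25.8 TPM for Isg15, where the next control was at 10.3 TPM, 18.6 TPM for Ifit1 (next 5.80 TPM) and 74.9 TPM for Ifit3 (next 24.0 TPM). They were 19.9 TPM for Irf7 (next 5.81 TPM), 18.5 TPM for Oasl2 (next 3.55 TPM) and 4.57 TPM for Rsad2 (next 1.92 TPM). Chance alone marks about 1 in 20 groups of this kind, and the members are correlated, so the 6 are not separate events. Irf1, Irf9 and Stat2 were not marked. The cause was not tested.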

How the results depend on the processing

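TPM keep no read depth, so low values such as those of Rsad2 in the controls carry a counting error that is not known here. With 3 mice a group, 1 library can decide a call. Tumors against both controls: 6 members were called, 2 to 8 with 1 sample left out, 1 against the Brca2-mut;Trp53-WT controls alone, and 5830 genes became 11573 at an adjusted p of 0.05 with no fold minimum. Ifit3 turned from -0.15 to 0.00082 under quantile normalization and to 0.32 against the Brca2-WT;Trp53-mut controls alone, and ran from -0.35 to 0.17 with 1 sample left out. The median of all genes moved from -0.11 to -0.0044 under median-of-ratios scaling and 0.06 under quantile normalization. Tumors against adjacent cerebellum: with the mouse as a replicate block 2 members were called in place of 1, Irf1 being added. The 3607 genes called became 7980 at an adjusted p of 0.05 with no fold minimum, 2377 to 3482 with 1 sample left out and 2250 with the block and without GB344 (chosen after seeing the data), where Ifit1 turned from 0.34 to -0.0895. It ran from -0.10 to 0.81 with 1 sample left out. The block changed no other member's call.

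Adjacent cerebellum against both controls: 0 to 1 members were called with 1 sample left out. The 38 genes called became 4 with no filter on low values, 60 under median-of-ratios scaling, 59 under quantile normalization, 10 without the trend, 2524 at an adjusted p of 0.05 with no fold minimum, 4 against the Brca2-mut;Trp53-WT controls alone, 5 without adjacent GB344 and control GB512 (chosen after seeing the data), and 0 to 586 with 1 sample left out (586 without adjacent GB370). Ifit3 turned from 0.31 to -0.16 against the Brca2-mut;Trp53-WT controls alone. Between the control genotypes, the 9 genes called became 2 with a pseudocount of 0.01, 3 with no filter, 3 at 5 TPM, 4 under median-of-ratios scaling, 3 under quantile normalization, 3 without the trend, 21 with all 4 groups in a fit, 71 at an adjusted p of 0.05 with no fold minimum and 4 to 29 with 1 sample left out. Irf1 turned from -0.02 to 0.0479 under median-of-ratios scaling and 0.0811 under quantile normalization, and with 1 sample left out ran from -0.18 to 0.0937, Irf9 from -0.27 to 0.39 and Rsad2 from -0.15 to 0.67. The cause of these shifts was not tested.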
